A study of Mus musculus with 12 samples.

Results

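The 9 genes described here are factors of the formative and primed epiblast: *Fgf5*, *Otx2*, *Pou3f1*, *Sox3*, *Zic2*, *Hesx1*, *Sall2*, *Grhl2* and *Foxd3*. They were taken by gene symbol from the 50978 rows of the deposited expression table, and each symbol had a row. Of these genes, 8 were expressed above 1 CPM (reads of a gene scaled to 1000000 reads on genes) in at least 2 libraries and were tested together with all 12914 genes that passed this filter. *Fgf5* did not pass it.

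Pluripotent cells of the mouse embryo leave a naive state in the blastocyst, pass through a formative state and reach a primed state in the epiblast after implantation. During these steps FGF-ERK signalling and OTX2 open a new set of enhancers, *Fgf5* and *Pou3f1* are induced, and de novo DNA methyltransferases increase. Embryonic stem cells (ESCs) kept in serum and LIF are known to vary from cell to cell in such genes.

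RNA was measured in 3 lines of mouse E14 ESCs, each with 2 libraries made from separate dishes. The parental ESCs carried no transgene. The second line, ESC + H/F-PRAMEL7 WT, expressed HA- and FLAG-tagged full-length PRAMEL7, a protein that serves as substrate receptor of the CUL2 ubiquitin ligase. The third line, ESC + H/F-PRAMEL7 ΔN, expressed a tagged form with a deletion of 50 amino acids at the N-terminus by the sample labels (the sources differ on its length), which removes the region that binds CUL2. All lines were grown in medium with 15% serum and LIF. Both transgenes were placed in the *Rosa26* locus with Cas9 under the ubiquitous CAG promoter, and the cells were selected with puromycin and grown from single cells. Each derived line is therefore 1 clone, so effects of the transgene and of the clone cannot be told apart, and the p-values measure the spread between dishes of the same line. The ChIP and input samples of the series were not analysed here.

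The libraries held 18252816 to 19853306 reads on genes. *Pramel7* stood at 0.258 and 0.217 CPM in parental ESCs, at 51.2 and 46.3 CPM in PRAMEL7 WT cells and at 398 and 431 CPM in PRAMEL7 ΔN cells. The truncated form was thus the more abundant transcript in both libraries of its line, and the deletion and the amount of transgene RNA cannot be told apart. All 8 markers of ESCs were present in each line, with a summed level of 3414 to 3979 CPM, of which *Pou5f1* stood at 659 to 856 CPM, *Sox2* at 165 to 262 CPM and *Nanog* at 454 to 692 CPM. In PRAMEL7 WT cells 3 of the 8 were lower than parental, by log2 fold changes of -0.39 (*Zfp42*), -0.36 (*Nanog*) and -0.34 (*Tdgf1*). Their limma adjusted p values were 0.0184, 0.0178 and 0.0258. Of all tested genes, 16.3% were called lower and 8.71% higher in that comparison, and their median log2 fold change was -0.08. *Dppa4* was higher than parental in PRAMEL7 ΔN cells (0.32, limma adjusted p = 0.0287). The summed markers of neuroectoderm (6.27 to 10.2 CPM) and trophectoderm (3.20 to 5.34 CPM) were low in every library, with *Hand1* of the latter higher than parental in PRAMEL7 ΔN cells (log2 fold change 0.71, limma adjusted p = 0.0210). Those of primitive endoderm were 7.11 to 10.5 CPM in parental, 11.8 to 13.4 CPM in PRAMEL7 WT and 9.77 to 10.5 CPM in PRAMEL7 ΔN cells, with *Gata4* higher than parental in both derived lines (log2 fold changes 0.69 and 0.78, limma adjusted p = 0.0299 and 0.0216), *Sox7* higher in PRAMEL7 WT (0.58, adjusted p = 0.0407) and *Pdgfra* lower in both (-0.60 and -0.66, adjusted p = 0.0402 and 0.0319). Those of primitive streak were 5.32 to 6.19 CPM in parental, 4.91 to 6.99 CPM in PRAMEL7 WT and 10.04 to 11.3 CPM in PRAMEL7 ΔN cells, with *Eomes* higher than parental in PRAMEL7 ΔN (0.96, limma adjusted p = 0.00513). Summed fibroblast markers were 41.8 to 55.6 CPM in parental, 21.1 to 22.4 CPM in PRAMEL7 WT and 38.8 to 43.6 CPM in PRAMEL7 ΔN cells. Most of this sum was *Thy1* (39.58 and 52.45, 20.50 and 21.64, and 42.31 and 37.85 CPM), and the defining genes *Dcn* and *Lum* were at 0 throughout. *Thy1* (-1.08, limma adjusted p = 0.00147) and *Col1a1* (-1.02, limma adjusted p = 0.011) were lower than parental in PRAMEL7 WT. *Gata4*, *Pdgfra*, *Hand1* and *Col1a1* averaged 2.52 CPM or less in each line, near the filter of 1 CPM. The part of these marker differences in the results was not tested. In such bulk samples, fewer cells that express a gene and less RNA of it per cell cannot be told apart.

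Among the members, the derived lines differed most, by log2 fold change, in 2 homeobox genes. *Otx2* and *Hesx1* were higher than in parental ESCs in PRAMEL7 WT cells and lower than in parental ESCs in PRAMEL7 ΔN cells. *Zic2* was lower in both derived lines and lowest in PRAMEL7 ΔN cells, and *Grhl2* was higher in PRAMEL7 WT cells. *Foxd3*, *Pou3f1*, *Sox3* and *Sall2* passed the test in none of the 3 comparisons, and *Fgf5* was at the limit of detection in every library.

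Read as counts, 3 of the 8 tested members were higher and 1 was lower in PRAMEL7 WT than in parental cells at an adjusted p under 0.05 (limma on log2 of CPM + 1, Benjamini-Hochberg adjustment over all tested genes). Over all genes, 8.71% were called higher and 16.3% lower in that comparison. In PRAMEL7 ΔN cells no tested member was called higher and 3 were called lower, beside 6.25% and 13.6% of all genes. *Sox3* was the 1 member higher there at an unadjusted p under 0.05, and voom on whole reads also called 0 higher. In the direct comparison of the derived lines, 4 members were higher in PRAMEL7 WT than in PRAMEL7 ΔN cells and none lower, also none at an unadjusted p under 0.05 or by voom, beside 10.9% and 9.44% of all genes. The comparisons with parental ESCs share the parental libraries. The direct comparison tests the difference between the derived lines and does not use them except for the estimate of spread.

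The median log2 fold change of the 8 members was 0.37 in PRAMEL7 WT over parental, -0.10 in PRAMEL7 ΔN over parental and 0.50 in PRAMEL7 WT over PRAMEL7 ΔN cells, while the medians of all tested genes were -0.08, -0.06 and -0.02. With so few libraries, groups often do not overlap: this held for 7, 8 and 7 members in the 3 comparisons and for 64.3%, 57.0% and 68.8% of all tested genes. Without replicate 1 of PRAMEL7 WT 1 member was called higher than in parental ESCs, and without replicate 2 none was. With median-of-ratios scaling, 52.8% of all calls in PRAMEL7 WT over parental were higher against 34.8% with the scaling used here, and 45.1% against 31.4% in PRAMEL7 ΔN over parental, but no member changed direction under median-of-ratios, quantile or chromosome scaling or by voom.

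**Figure D1:**
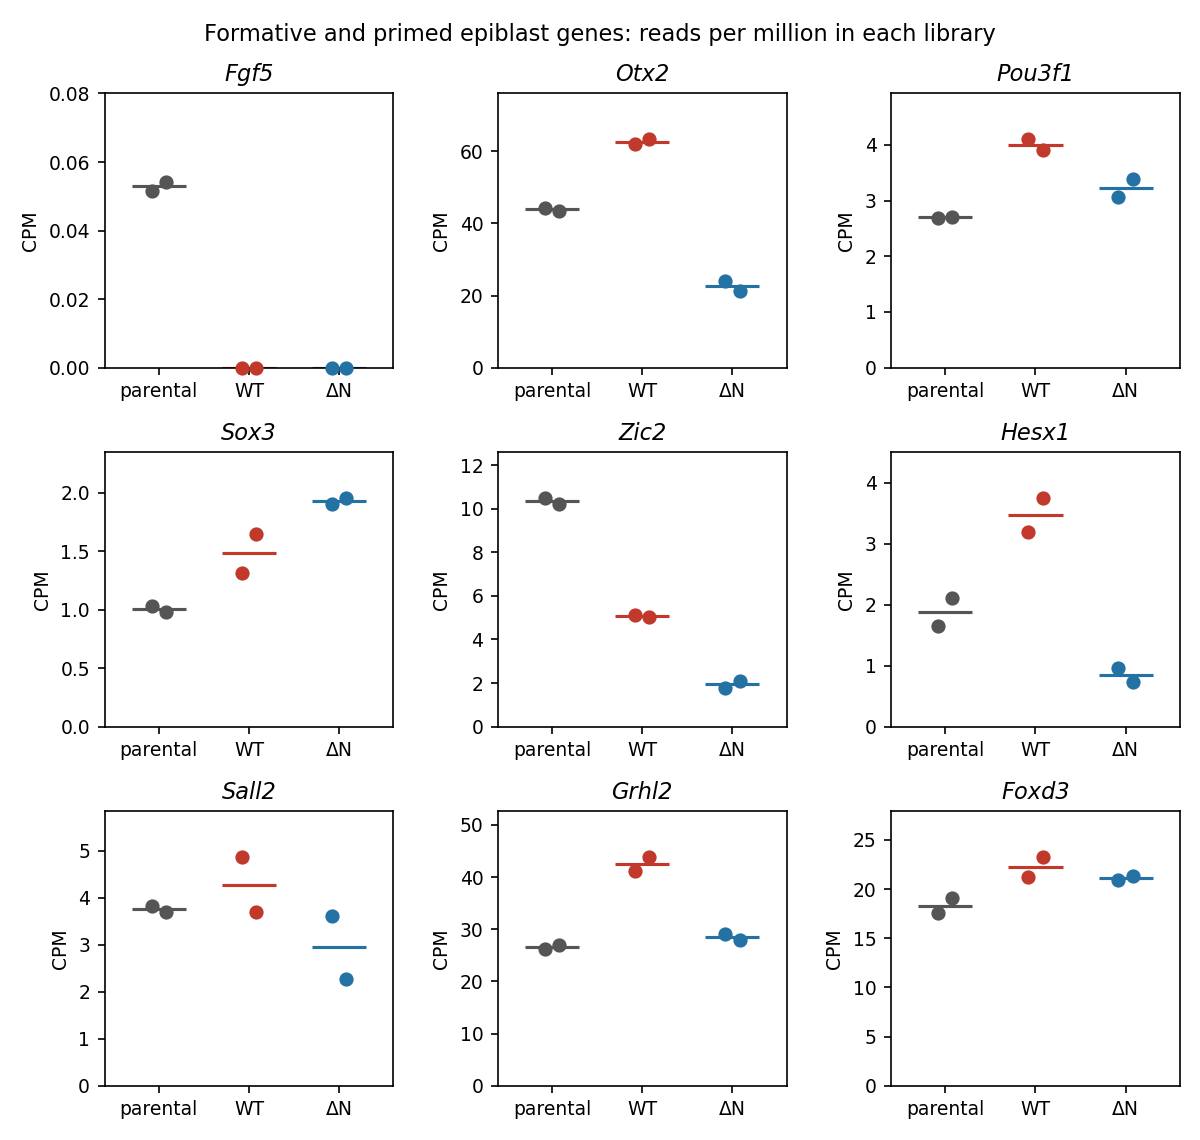
Level of each of the 9 genes in CPM (vertical axis, starting at 0, with its own range for each gene) in parental ESCs (grey), PRAMEL7 WT cells (red) and PRAMEL7 ΔN cells (blue). Points are the 2 libraries of a line and bars are their mean. *Otx2* and *Hesx1* lie above the parental libraries in PRAMEL7 WT and below them in PRAMEL7 ΔN cells, and *Zic2* falls from about 10.3 to 5.06 and 1.93 CPM.

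*Fgf5* (chr5:98254184-98277030, plus strand, mm10) encodes the FGF ligand most used as a marker of the postimplantation epiblast. It was covered by 1 read in each parental library and by 0 reads in the other 4 libraries. A count of 0 allows up to 3 reads, which is 0.151 to 0.165 CPM in these libraries. No difference in *Fgf5* was detectable at this depth. The name of the group thus describes the genes, and *Fgf5*, its best known primed marker, was not above the limit of detection in these libraries.

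*Otx2* (chr14:48657677-48673819, minus strand) encodes the homeodomain factor that directs the exit from the naive state. Its level was 44.4 and 43.5 CPM in parental ESCs, 61.9 and 63.4 CPM in PRAMEL7 WT cells and 24.0 and 21.2 CPM in PRAMEL7 ΔN cells. The 3 pairs of libraries did not overlap, with the parental pair in the middle. Mean *Otx2* was 1.43-fold higher in PRAMEL7 WT than in parental cells, with a log2 fold change of 0.50 (SE 0.10, n = 2 libraries each, limma adjusted p = 0.00901). In PRAMEL7 ΔN cells it was 1.94-fold lower than in parental cells, a log2 fold change of -0.93 (SE 0.10, limma adjusted p = 0.000520). Between the derived lines the ratio was 2.77, with a log2 fold change of 1.43 (SE 0.10, limma adjusted p = 3.59e-05). The increase over parental cells passed the test under all alternatives that tested it except when a PRAMEL7 WT library was left out (adjusted p = 0.0823 without replicate 1 and 0.0947 without replicate 2, limma). The noncoding *Otx2os1*, which overlaps *Otx2* on the other strand and could share its reads in an unstranded library, did not exceed 0.220 CPM. The gene model *Gm49154*, which overlaps *Otx2* on the same strand, had no value among the genes kept, so its share of reads is not known.

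*Hesx1* (chr14:26994416-27002329, plus strand) encodes a homeodomain repressor of the anterior epiblast and later of the forebrain and pituitary. It was sparsely expressed, with 32 and 39 reads in parental ESCs, 63 and 68 reads in PRAMEL7 WT cells and 19 and 14 reads in PRAMEL7 ΔN cells. As CPM these were 1.65 and 2.12, 3.19 and 3.74, and 0.954 and 0.739. As for *Otx2*, both PRAMEL7 WT libraries stood above and both PRAMEL7 ΔN libraries below the parental pair. *Hesx1* was 1.84-fold higher in PRAMEL7 WT than in parental cells, a log2 fold change of 0.63 (SE 0.18, limma adjusted p = 0.0317). It was 2.23-fold lower in PRAMEL7 ΔN than in parental cells, a log2 fold change of -0.64 (SE 0.18, limma adjusted p = 0.0347). These fold changes are on log2 of CPM + 1, which understates the change of a gene at this level.

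The comparisons of *Hesx1* with parental ESCs were less secure than those of *Otx2*. Under the alternatives, limma adjusted p for *Hesx1* ranged from 0.0128 to 0.194 in PRAMEL7 WT and from 0.0154 to 0.190 in PRAMEL7 ΔN over parental, and the call was lost in 8 and 11 of 16 alternatives. Leaving out 1 library ended the PRAMEL7 WT call for every library except replicate 2 of the parental ESCs, and the PRAMEL7 ΔN call for every library except replicate 1 of the parental ESCs. The direct comparison held in all 16. There, *Hesx1* was 4.10-fold higher in PRAMEL7 WT than in PRAMEL7 ΔN cells, with a log2 fold change of 1.27 (SE 0.18, limma adjusted p = 0.00154).

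**Figure D2:**
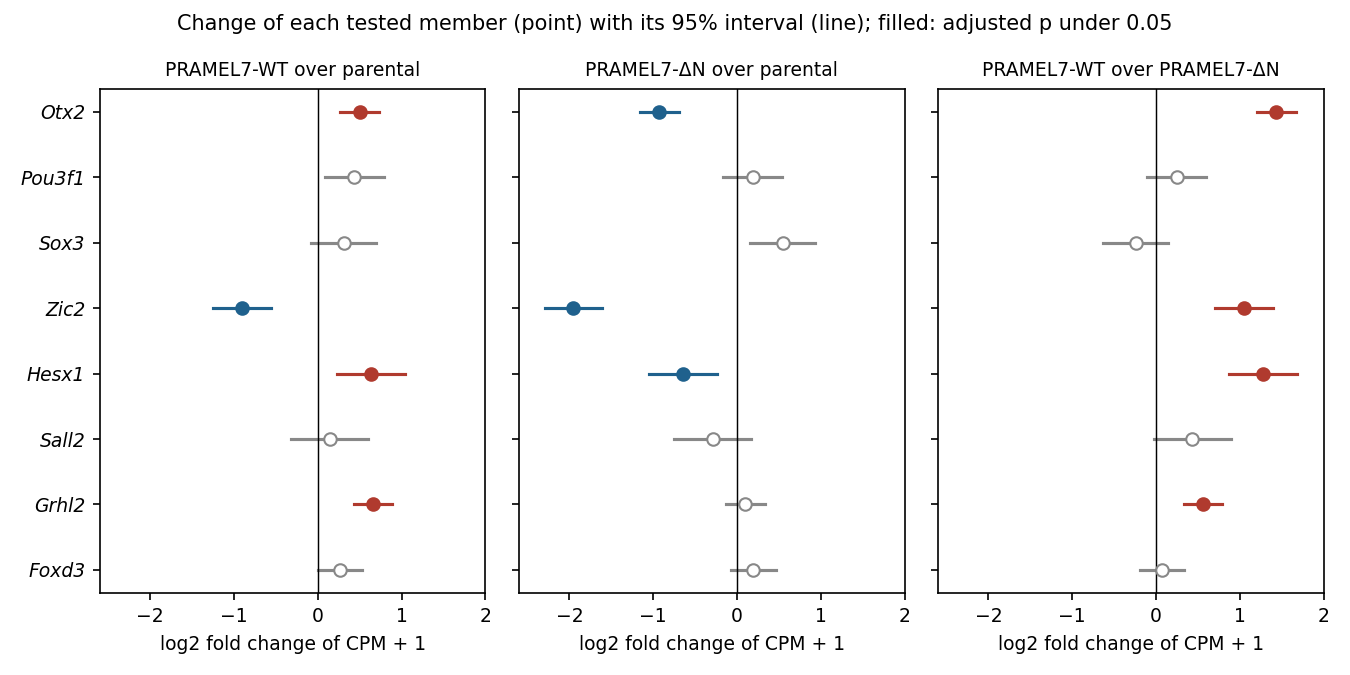
Log2 fold change of CPM + 1 (horizontal axis) of the 8 tested members in PRAMEL7 WT over parental, PRAMEL7 ΔN over parental and PRAMEL7 WT over PRAMEL7 ΔN cells, from limma with all 6 libraries. Points are estimates, lines are 95% intervals, filled points passed an adjusted p under 0.05 (red higher, blue lower). *Otx2* (0.50 and -0.93) and *Hesx1* (0.63 and -0.64) lie on opposite sides of 0 in the left and middle panels.

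The promoters of *Otx2* and *Hesx1* are shown because both genes moved in opposite directions in the derived lines. RefSeq promoter sequences (GRCm38.p6, the same build as mm10), from 250 bases before to 50 bases after a start site, were read for *Fgf5*, *Foxd3*, *Hesx1*, *Otx2* and *Sall2*, with 9 start sites in all. For *Hesx1* the sequence is chr14:27000112-27000411 on the plus strand. For *Otx2* the sequences are chr14:48667595-48667894 and chr14:48665060-48665359 on the minus strand, from 2 of its 4 start sites. These 2 are the only *Otx2* promoters that held matches to the motifs searched. Each start site lies inside the gene span given above. The sequences are written 5′ to 3′ on the strand of the gene, and capitals mark matches to the motifs searched.
Hesx1: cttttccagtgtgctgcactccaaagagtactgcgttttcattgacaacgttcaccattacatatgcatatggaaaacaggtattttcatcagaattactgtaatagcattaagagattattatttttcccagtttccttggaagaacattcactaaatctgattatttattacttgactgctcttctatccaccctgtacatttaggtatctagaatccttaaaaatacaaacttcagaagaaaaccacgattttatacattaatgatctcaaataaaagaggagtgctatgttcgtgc
Otx2 first site: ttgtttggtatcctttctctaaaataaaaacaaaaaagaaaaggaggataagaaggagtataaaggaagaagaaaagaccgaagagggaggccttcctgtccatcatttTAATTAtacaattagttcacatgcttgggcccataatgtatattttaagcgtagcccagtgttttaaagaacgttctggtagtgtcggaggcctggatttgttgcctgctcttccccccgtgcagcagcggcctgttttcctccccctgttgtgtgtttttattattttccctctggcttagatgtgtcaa
Otx2 second site: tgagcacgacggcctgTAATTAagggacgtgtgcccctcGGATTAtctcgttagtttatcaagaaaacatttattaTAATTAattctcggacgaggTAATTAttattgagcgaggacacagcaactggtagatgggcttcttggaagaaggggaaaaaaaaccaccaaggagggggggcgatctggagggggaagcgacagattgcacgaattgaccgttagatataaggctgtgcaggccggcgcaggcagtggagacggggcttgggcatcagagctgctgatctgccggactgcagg

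Motifs were searched on both strands as exact letters: the octamer ATGCAAAT, the bicoid-type homeodomain motif TAATCC, the homeodomain motif TAATTA, the SOX motifs AACAAAG and AACAATG, the GRHL motif AACCGGTT and the forkhead motif TGTTTAC. The *Otx2* promoter at the first site held TAATTA at position -141 from the start site. The promoter at the second site held TAATTA at positions -234, -174 and -154, and TAATCC on the opposite strand at position -211, with no overlap between matches. Of 32851 mouse promoters of the same length, 5.29% held TAATTA and 7.06% held TAATCC. The printed *Hesx1* promoter and the other 6 member promoters held none of these letters.

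*Zic2* (chr14:122475435-122479852, plus strand), a zinc finger factor bound at ESC enhancers and later required in the neural plate, had the largest change over parental ESCs among the 8. It stood at 10.5 and 10.2 CPM in parental ESCs, at 5.11 and 5.01 CPM in PRAMEL7 WT cells and at 1.76 and 2.11 CPM in PRAMEL7 ΔN cells. The replicates lay close together and the lines far apart. In PRAMEL7 WT cells *Zic2* was 2.04-fold lower than in parental ESCs, a log2 fold change of -0.90 (SE 0.15, limma adjusted p = 0.00413). In PRAMEL7 ΔN cells it was 5.34-fold lower, a log2 fold change of -1.95 (SE 0.15, limma adjusted p = 7.09e-05). *Zic2* was 2.62-fold higher in PRAMEL7 WT than in PRAMEL7 ΔN cells, a log2 fold change of 1.05 (SE 0.15, limma adjusted p = 0.00174). Both derived lines thus lay below parental ESCs in *Zic2*, and they also differed from each other, in every alternative that tested it.

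*Zic5*, the paralogue whose start site lies upstream of that of *Zic2* (at -9.758 kb), stood at 6.40 and 10.5 CPM in parental ESCs, 4.20 and 5.51 CPM in PRAMEL7 WT cells and 2.36 and 2.01 CPM in PRAMEL7 ΔN cells. It was lower in PRAMEL7 ΔN than in parental cells (log2 fold change -1.54, SE 0.22, limma adjusted p = 0.00190). In PRAMEL7 WT over parental cells its log2 fold change was -0.66 (SE 0.22, limma adjusted p = 0.0553), which did not pass. *Zic5* was higher in PRAMEL7 WT than in PRAMEL7 ΔN cells (log2 fold change 0.87, SE 0.22, limma adjusted p = 0.0236). Each of 4 libraries ended that last call when left out, with limma adjusted p of up to 0.183. The paralogues of the members that were tested numbered 10 of 21. None was called in PRAMEL7 WT over parental cells by limma with the scaling used here or by voom. At an unadjusted p under 0.05 there were 4 (*Grhl1*, *Grhl3* and *Sall3* up, *Zic5* down). With median-of-ratios, quantile or chromosome scaling limma called 2 higher and 0 lower, and with the replicate block 0 higher and 1 lower. In PRAMEL7 ΔN over parental cells *Grhl3* was higher (0.51) and *Zic5* lower, and *Zic5* and *Sall4* (0.30) were higher in PRAMEL7 WT than in PRAMEL7 ΔN cells. With 1 library left out in turn, limma adjusted p reached 0.0694 for *Grhl3* and 0.245 for *Sall4*. Of all tested genes, 8.71% were called higher and 16.3% lower in PRAMEL7 WT over parental cells. The shares were 6.25% and 13.6% in PRAMEL7 ΔN over parental cells, and 10.9% and 9.44% in PRAMEL7 WT over PRAMEL7 ΔN cells.

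*Otx2*, *Hesx1*, *Zic2* and *Sall2* all lie on chromosome 14. The 424 tested genes of chromosome 14 had medians of -0.09 in PRAMEL7 WT over parental and -0.05 in PRAMEL7 ΔN over parental cells, near the medians of all genes. Within 1 Mb of *Zic2* lay 10 tested genes with medians of -0.27 and -0.35 in these comparisons, of which 2 and 5 were called lower and 1 and 0 higher. The 7 neighbours of *Otx2* had medians of -0.18 and -0.11, with 1 higher and 1 lower in PRAMEL7 WT and none called in PRAMEL7 ΔN over parental cells. Around *Hesx1*, 11 neighbours had medians of -0.22 and -0.09, with 2 called lower in PRAMEL7 WT and 1 higher in PRAMEL7 ΔN over parental cells. Beside these counts, 16.3% of all tested genes were called lower and 8.71% higher in PRAMEL7 WT over parental cells. In PRAMEL7 ΔN over parental cells the shares were 13.6% and 6.25%. No neighbour of *Otx2* or *Hesx1* was called in both derived lines, and each of these 2 genes moved further than all its neighbours in PRAMEL7 ΔN over parental cells. In PRAMEL7 WT over parental cells this did not hold for *Otx2* (0.50), whose neighbour *Naa30* moved by -0.57, and *Ccdc66* (-0.62) moved about as far as its neighbour *Hesx1* (0.63). The neighbour of *Otx2* called higher in that comparison was *Peli2* (0.48, limma adjusted p = 0.03365). *Peli2* was also higher in PRAMEL7 WT than in PRAMEL7 ΔN cells (0.57, limma adjusted p = 0.02105). Opposite calls in the derived lines were not confined to *Otx2* and *Hesx1*. *Timm8a2*, a neighbour of *Zic2*, was higher in PRAMEL7 WT (0.93, limma adjusted p = 0.0118) and lower in PRAMEL7 ΔN over parental cells (-0.66, limma adjusted p = 0.0489). *Mcf2*, a neighbour of *Sox3*, was called likewise (0.76 and -1.235, limma adjusted p = 0.0152 and 0.001915).

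**Figure D3:**
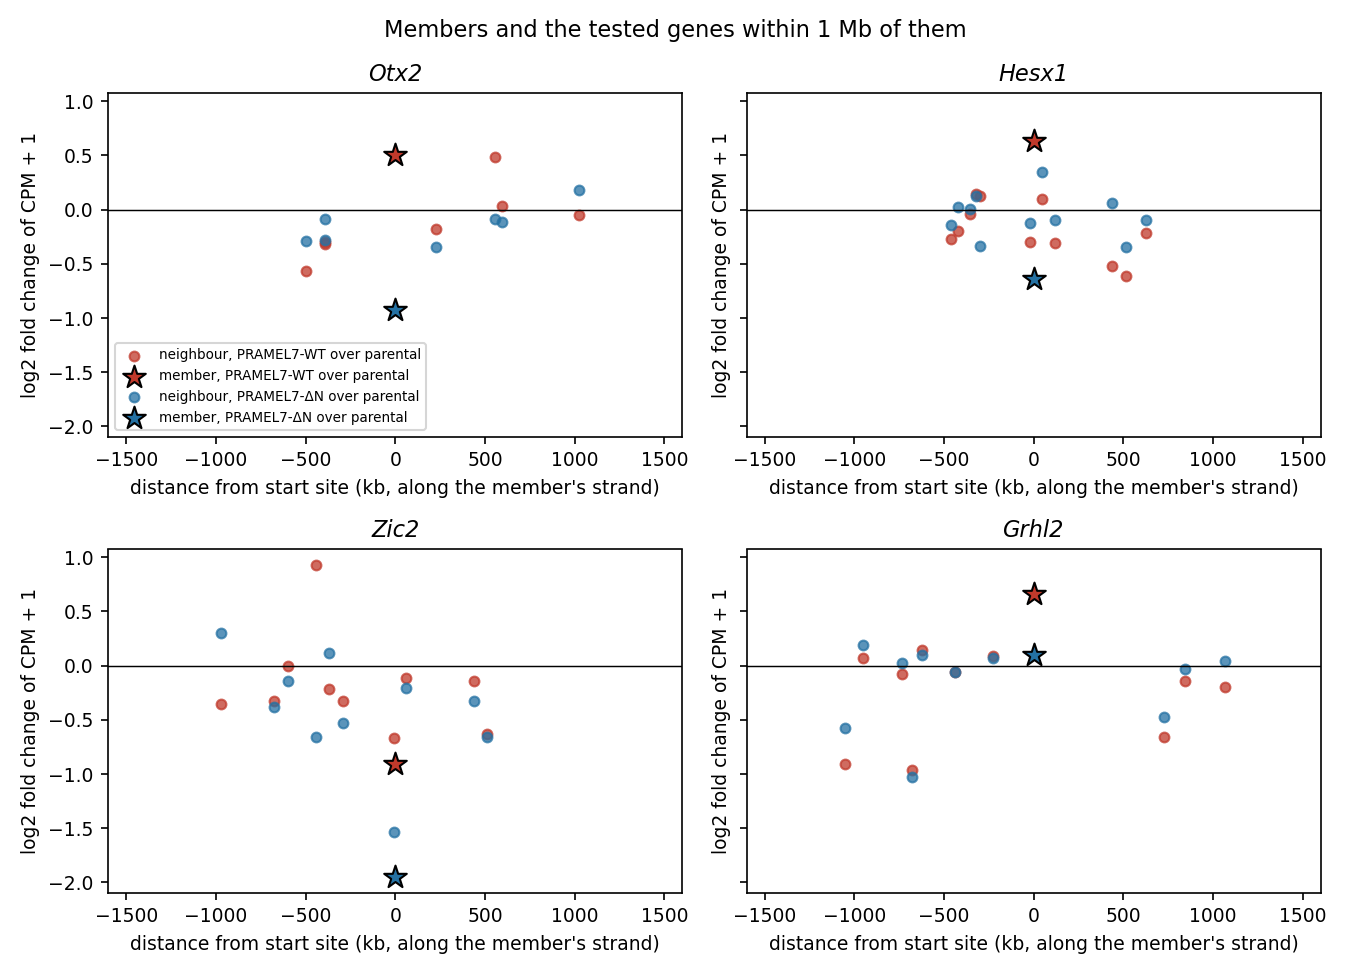
Log2 fold change of CPM + 1 over parental ESCs (vertical axis) of *Otx2*, *Hesx1*, *Zic2* and *Grhl2* (stars) and of the tested genes within 1 Mb (points), against the distance between start sites in kb along the strand of the member. Red is PRAMEL7 WT and blue PRAMEL7 ΔN. The blue stars of *Otx2* and *Hesx1* lie below all their neighbours, while *Zic5*, at -9.758 kb, lies next to *Zic2* at -0.66 and -1.54.

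*Grhl2* (chr15:37233036-37363569, plus strand), a grainyhead factor that opens enhancers of epithelial genes in the formative state, stood at 26.3 and 26.9 CPM in parental ESCs, 41.3 and 43.8 CPM in PRAMEL7 WT cells and 29.1 and 28.0 CPM in PRAMEL7 ΔN cells. The PRAMEL7 WT pair stood well above the others, and the PRAMEL7 ΔN pair just above the parental pair. *Grhl2* was 1.60-fold higher in PRAMEL7 WT than in parental cells, a log2 fold change of 0.66 (SE 0.10, limma adjusted p = 0.00296), and 1.49-fold higher than in PRAMEL7 ΔN cells, a log2 fold change of 0.56 (SE 0.10, limma adjusted p = 0.00547). In PRAMEL7 ΔN over parental cells the log2 fold change was 0.10 (95% interval -0.13 to 0.33, limma adjusted p = 0.547). The first call was lost without replicate 2 of PRAMEL7 WT (adjusted p = 0.0518, limma), and the second without replicate 1 or 2 of PRAMEL7 WT or replicate 2 of PRAMEL7 ΔN (up to 0.0854, limma). Antisense and pseudogene models overlapping *Grhl2* did not exceed 0.361 CPM each.

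Epithelial genes known as targets of GRHL2 were measured for 10 genes of a list that was drawn up with earlier results of these data known, so that its counts are not independent evidence. In PRAMEL7 WT over parental cells 6 rose and none fell, in PRAMEL7 ΔN over parental cells 2 rose (*Cldn6* at 0.50 and *Epcam* at 0.31) and none fell, and in PRAMEL7 WT over PRAMEL7 ΔN cells 4 were higher and none lower, all by limma. By voom, the counts higher were 5, 2 and 4 and those lower 0 in each, and at an unadjusted p under 0.05 none was lower except *Esrp1* in PRAMEL7 ΔN over parental cells. Over all tested genes, limma called 8.71%, 6.25% and 10.9% higher in the 3 comparisons, and 16.3%, 13.6% and 9.44% lower. The medians of the 10 genes were 0.50, 0.13 and 0.37, and the second turned to -0.02 without replicate 1 and rose to 0.31 without replicate 2 of the parental ESCs. *Rab25*, a small GTPase of epithelial cells, rose from 4.18 and 4.72 CPM to 8.96 and 10.6 CPM in PRAMEL7 WT cells (log2 fold change 0.98). The tight junction genes *Cldn4* (0.95) and *Cldn6* (0.62) and the splicing regulator *Esrp2* (0.57) rose as well. Between PRAMEL7 WT and PRAMEL7 ΔN cells the log2 fold changes were 0.76 for the related splicing regulator *Esrp1*, 0.69 for *Rab25*, 0.62 for *Cldn4* and 0.48 for *Esrp2*, of which *Esrp1* passed with any 1 library left out and the others did not in 3 or 4 of these fits. Without replicate 1 or 2 of PRAMEL7 WT, the 6 calls over parental cells became 3 and 1, and the 2 calls in PRAMEL7 ΔN over parental cells became 0 without replicate 1 of that line, 2 higher and 1 lower without replicate 1 of the parental ESCs, 3 without replicate 2 of the parental ESCs and 1 without replicate 2 of PRAMEL7 ΔN or either PRAMEL7 WT library. With any 1 of the 6 libraries left out in turn, limma adjusted p reached 0.0556 for *Rab25*, 0.0503 for *Cldn6*, 0.132 for *Esrp2* and 0.0272 for *Cldn4*.

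**Figure D4:**
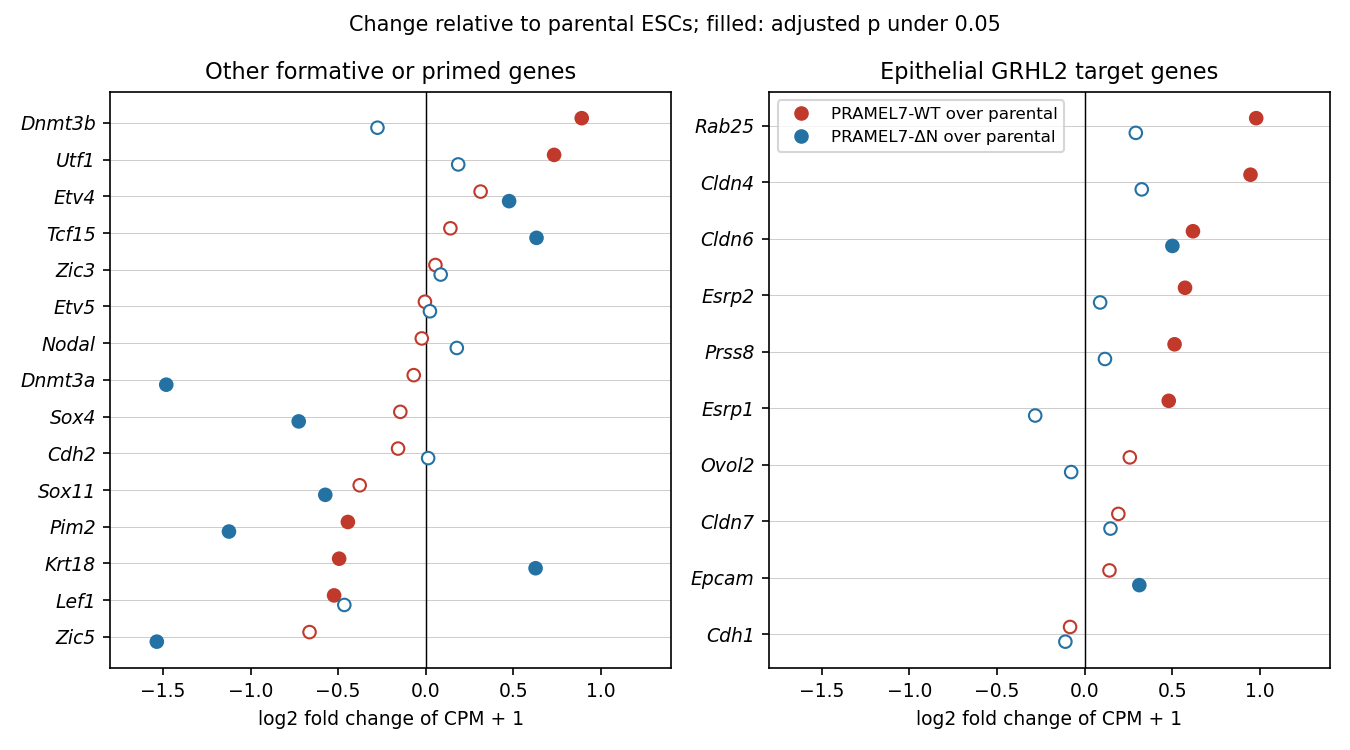
Log2 fold change of CPM + 1 over parental ESCs (horizontal axis) of the other formative or primed genes that were tested (left, 15 genes) and of the epithelial genes known as GRHL2 targets (right, 10 genes). Red is PRAMEL7 WT and blue PRAMEL7 ΔN, and filled points passed an adjusted p under 0.05. On the right, 6 red and 2 blue points are filled, all above 0, and on the left the filled points lie on both sides, with *Zic5* at -1.54 and *Dnmt3a* at -1.48 lowest.

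*Foxd3* (chr4:99656299-99658622, plus strand), a forkhead factor needed to keep the epiblast, stood at 17.6 and 19.0 CPM in parental ESCs, 21.2 and 23.2 CPM in PRAMEL7 WT cells and 20.9 and 21.3 CPM in PRAMEL7 ΔN cells. Its log2 fold change over parental cells was 0.27 (95% interval 0.00 to 0.53) in PRAMEL7 WT and 0.20 (-0.07 to 0.46) in PRAMEL7 ΔN, with limma adjusted p of 0.124 and 0.281. *Pou3f1* (chr4:124656807-124660655, plus strand), the POU factor also called OCT6, stood at 2.68 and 2.71 CPM in parental ESCs, 4.10 and 3.91 CPM in PRAMEL7 WT cells and 3.06 and 3.38 CPM in PRAMEL7 ΔN cells. Its mean was 1.49-fold the parental level in PRAMEL7 WT cells, but the log2 fold change of 0.44 (95% interval 0.08 to 0.79, limma adjusted p = 0.0685) did not pass. It passed with median-of-ratios scaling (0.0428, limma), quantile normalization (0.0269) and without the trend (0.0269). In PRAMEL7 ΔN over parental cells *Pou3f1* changed by 0.19 (95% interval -0.16 to 0.54). For both genes, no difference between the derived lines passed the test, with log2 fold changes of 0.07 (95% interval -0.20 to 0.33) for *Foxd3* and 0.25 (-0.11 to 0.60) for *Pou3f1*.

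*Sox3* (chrX:60891366-60893430, minus strand), a SOXB1 factor of the epiblast and neural progenitors, stood at 1.03 and 0.977 CPM in parental ESCs, 1.32 and 1.65 CPM in PRAMEL7 WT cells and 1.91 and 1.95 CPM in PRAMEL7 ΔN cells. Its order over the lines was the opposite of that of *Zic2*, with PRAMEL7 ΔN highest. The mean in PRAMEL7 ΔN cells was 1.92-fold the parental level, and the log2 fold change of 0.55 (95% interval 0.16 to 0.94) had a limma adjusted p of 0.0523. Under median-of-ratios scaling, quantile normalization, no trend or centring on the chromosome it passed, with adjusted p of 0.0412, 0.0160, 0.0182 and 0.0166 (limma). *Sall2* (chr14:52311172-52328762, minus strand), a zinc finger factor, stood at 3.82 and 3.69 CPM, 4.86 and 3.69 CPM, and 3.61 and 2.27 CPM in the 3 lines. In both derived lines its 2 libraries were further apart, as a ratio, than those of any other tested member. The *Sall2* log2 fold change was 0.14 (95% interval -0.32 to 0.60) in PRAMEL7 WT and -0.29 (-0.75 to 0.17) in PRAMEL7 ΔN over parental cells, and the first turned to -0.02 without replicate 1 of PRAMEL7 WT.

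Per kb of exon, the order of the mean levels in parental ESCs was *Otx2* (10.4 CPM per kb), *Foxd3* (7.88), *Zic2* (3.59), *Grhl2* (3.09), *Hesx1* (1.51), *Pou3f1* (0.701), *Sall2* (0.691), *Sox3* (0.486) and *Fgf5* (0.0212). Only *Pou3f1* and *Sall2* overlapped between neighbours. Whether the counts include reads in introns is not known. Such reads could raise genes with long introns, as *Grhl2* (130534 bp of span, 8613 bp of exon), in this order. In PRAMEL7 WT cells *Zic2* (1.76 CPM per kb) was below *Grhl2* (4.94) and *Hesx1* (2.78), and *Otx2* was at 14.8. In PRAMEL7 ΔN cells *Foxd3* (9.09 CPM per kb) was above *Otx2* (5.36), followed by *Grhl2* (3.31) and *Sox3* (0.935), while *Hesx1* (0.678), *Zic2* (0.672) and *Sall2* (0.541) overlapped their neighbours.

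Of the other formative or primed epiblast genes, 15 of 18 were tested. In PRAMEL7 WT over parental cells the methyltransferase *Dnmt3b* (log2 fold change 0.89) and the chromatin factor *Utf1* (0.73) rose, and the Wnt effector *Lef1* (-0.52), the keratin *Krt18* (-0.49) and the kinase *Pim2* (-0.44) fell. In PRAMEL7 ΔN over parental cells 3 rose and 5 fell, with *Zic5* (-1.54), the methyltransferase *Dnmt3a* (-1.48), *Pim2* (-1.12) and *Sox4* (-0.72) among the latter. *Dnmt3a* stood at 95.9 and 86.8 CPM in parental ESCs, 88.4 and 85.6 CPM in PRAMEL7 WT cells and 32.2 and 31.8 CPM in PRAMEL7 ΔN cells. Between the derived lines 4 of the 15 were higher in PRAMEL7 WT, including *Dnmt3a* (1.41), *Dnmt3b* (1.17) and *Zic5* (0.87), and 2 lower, including *Krt18* (-1.12). Of all tested genes, 8.71%, 6.25% and 10.9% were called higher in these 3 comparisons, and 16.3%, 13.6% and 9.44% lower. The medians of the list were -0.07, 0.01 and -0.03 in the 3 comparisons. Without replicate 1 or replicate 2 of PRAMEL7 WT, 1 higher and 0 lower calls were left over parental ESCs, and without replicate 1 or 2 of PRAMEL7 ΔN, 1 and 0 higher and 3 lower calls were left in PRAMEL7 ΔN cells. By voom 3 rather than 5 fell in PRAMEL7 ΔN over parental cells. With 1 library left out in turn, log2 fold changes in PRAMEL7 WT over parental cells were 0.74 to 1.04 for *Dnmt3b* and 0.46 to 1.01 for *Utf1*. They were -0.53 to -0.51 for *Lef1* and -0.65 to -0.34 for *Krt18*. In PRAMEL7 ΔN over parental cells the ranges were -1.85 to -1.22 for *Zic5* and -1.55 to -1.41 for *Dnmt3a*. Those of *Pim2* and *Sox4* there were -1.17 to -1.07 and -0.94 to -0.51. *Utf1*, *Lef1*, *Krt18* and *Sox4* lost their calls in some of these fits. With the 4 other scalings, *Lef1* lost its call in 3, *Krt18* in 2 and *Sox4* in 4.

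All 15 naive pluripotency genes were tested, of which 1 rose and 6 fell in PRAMEL7 WT over parental cells. *Dppa3* (-2.12), *Klf4* (-0.66) and *Nr5a2* (-0.42) fell and *Nr0b1* (0.83) rose. In PRAMEL7 ΔN over parental cells 1 rose and 3 fell, namely *Tet2* (0.58) up and *Dppa3* (-2.67), *Klf2* (-1.34) and *Nr5a2* (-0.47) down. A further list of 11 genes held FGF-ERK components and feedback genes together with *Tcf7l1*, a repressor of the Wnt pathway, the Notch effector *Rbpj* and the zinc finger factor *Zfp281*. Of these 11 genes 3 rose in PRAMEL7 WT over parental cells, namely *Tcf7l1* (0.96), the receptor *Fgfr1* (0.57) and the ERK phosphatase *Dusp6* (0.51), and 4 rose in PRAMEL7 ΔN over parental cells, including *Tcf7l1* (0.82), *Dusp6* (0.70) and *Spry4* (0.63), while the receptor *Fgfr2* fell (-0.96). Between the derived lines, 3 naive genes were higher and 5 lower in PRAMEL7 WT, with *Klf2* (1.37) and *Nr0b1* (0.78) among the former and *Tet2* (-0.996) and *Klf4* (-0.90) among the latter. In the same comparison *Fgfr2* (0.92) was higher and *Spry4* (-0.91) and *Zfp281* (-0.44) were lower. Beside these counts, 8.71% of all tested genes were called higher and 16.3% lower in PRAMEL7 WT over parental cells. The shares were 6.25% and 13.6% in PRAMEL7 ΔN over parental cells, and 10.9% and 9.44% in PRAMEL7 WT over PRAMEL7 ΔN cells. The 6 naive genes that fell in PRAMEL7 WT became 1 without replicate 1 and 1 without replicate 2 of PRAMEL7 WT, 2 without the filter, 3 without the trend and 0 on RPKM. The 1 naive gene that rose in PRAMEL7 ΔN became 3 without replicate 1 and 4 without replicate 2 of the parental ESCs and 0 without replicate 1 or 2 of PRAMEL7 ΔN. In the FGF-ERK list, the 3 that rose in PRAMEL7 WT became 1 without replicate 2 of that line, 3 also fell without replicate 2 of the parental ESCs, and the 1 that fell in PRAMEL7 ΔN became 0 without replicate 1 or 2 of that line. With 1 library left out in turn, limma adjusted p over parental ESCs reached 0.107 for *Klf4*, 0.116 for *Nr5a2*, 0.0643 for *Fgfr1* and 0.0806 for *Dusp6* in PRAMEL7 WT, and 0.110 for *Tet2*, 0.0677 for *Nr5a2* and 0.0817 for *Fgfr2* in PRAMEL7 ΔN. Between the derived lines it reached 0.113 for *Fgfr2* and 0.236 for *Zfp281*.

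Profiles were compared by the Euclidean distance between log2(CPM + 1) levels, centred on each gene's mean over the 6 libraries, among 8383 genes with a mean of at least 10 CPM. By this measure the genes most like *Otx2* were *Slc9a3r2* (0.293), *Lefty1* (0.293) and *Pja1* (0.334). *Lefty1*, an inhibitor of Nodal signalling, stood at 45.4 and 52.6 CPM in parental ESCs, 73.9 and 86.2 CPM in PRAMEL7 WT cells and 29.1 and 24.6 CPM in PRAMEL7 ΔN cells. *Pja1* (0.200) was also among the 3 genes nearest to *Hesx1*, with *Sox13* (0.187) and the Nodal effector *Smad3* (0.192). The Notch ligand *Jag1* (0.201), the hormone precursor *Trh* (0.246) and *Pls3* (0.441) were nearest to *Zic2*, and *Baiap2* (0.0486), *Kif4* (0.0962) and *Trip6* (0.0987) to *Grhl2*. The nearest profiles were those of *Rps14*, *Nol4l* and *Bax* for *Pou3f1* (0.0693 to 0.114), *Slc50a1*, *Slc44a2* and *Ccdc115* for *Sox3* (0.114 to 0.143), *Xkr5*, *Med27* and *Zbtb22* for *Sall2* (0.242 to 0.279) and *Trib3*, *Polr1c* and *B4gat1* for *Foxd3* (0.0752 to 0.0790). These distances describe 3 lines over 6 libraries, with each derived line a clone.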

How the data were processed

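Polyadenylated RNA of parental, PRAMEL7 WT and PRAMEL7 ΔN ESCs was read as single-end libraries made with a kit that does not mark strand. The authors' methods name SortMeRNA for ribosomal reads, Trimmomatic for trimming and STAR for mapping to mm10, and the authors deposited RPKM values from a pipeline of their own. The submitters' processing notes also name Bowtie2 2.3.4.3 and Subread 1.4.6-p4. The authors' deposited comparisons (log2 fold changes, scores, p-values and means from DESeq2) were not used.

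Of 50978 rows, 176 repeated or date-like names, 2796 without a match in GENCODE M21 and 66 with several matches were left out. With the gene span as length, 98.1% to 98.4% of values up to 20 reads came out within 0.1 of whole reads (40.1% to 41.9% with exon length), so RPKM was multiplied by the span to give CPM. The test was limma 3.58.1 on log2(CPM + 1), for genes with more than 1 CPM in 2 or more libraries (R 4.3.3, trend, 6 libraries in one fit), Benjamini-Hochberg adjusted. Voom on recovered reads was an alternative.

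Replicate numbers did not pair the libraries. Named list genes are up to 4 called genes per list and comparison with the largest change, or others named beside a count of 5 or fewer. Genes most like a member are the 3 nearest by distance. The values of *Lefty1*, *Dnmt3a* and *Rab25* and the neighbours within 1 Mb were chosen for display after values were seen. The members, lists and promoters shown were chosen with earlier results of these data known. Promoters came from RefSeq, GRCm38.p6. A further gene of the epithelial list as first written is not reported here and enters none of its counts.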

Additional observations from a re-analysis of the deposited data

Results flagged for a closer look

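*Otx2* and *Hesx1* drew attention because all libraries of PRAMEL7 WT lay above and all libraries of PRAMEL7 ΔN below the parental libraries, and the difference itself passed the test. The log2 fold change between the derived lines was 1.43 for *Otx2* and 1.27 for *Hesx1* (limma adjusted p = 3.59e-05 and 0.00154, n = 2 libraries each). Libraries without overlap are common with so few per line. They were seen for 64.3% of all tested genes in PRAMEL7 WT and 57.0% in PRAMEL7 ΔN over parental cells. The share of all genes with this order of the 3 lines was not counted.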

How the results depend on the processing

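Of 399 alternative values of single members, 366 kept their direction and their side of the threshold, 25 lost the call, 7 gained one and 1 turned, *Sall2* in PRAMEL7 WT over parental cells (-0.0195 without replicate 1 and 0.302 without replicate 2 of PRAMEL7 WT). On RPKM without conversion, where *Foxd3* alone of the members passed the filter, the counts in PRAMEL7 WT over parental (0 higher, 0 lower), PRAMEL7 ΔN over parental (0 lower) and PRAMEL7 WT over PRAMEL7 ΔN (0 higher) all fell to 0. With a library left out in turn, 0 to 3 members were higher in PRAMEL7 WT over parental cells. In PRAMEL7 ΔN over parental cells 1 member, *Sox3*, was higher with median-of-ratios scaling, quantile normalization, no trend or centring on the chromosome, against 0 otherwise. Replicate numbers did not pair samples (correlations of 0.207, -0.249 and -0.103). With the replicate block, 955 genes were higher and 1774 lower in PRAMEL7 WT over parental, 652 and 1460 in PRAMEL7 ΔN over parental cells and 1206 and 975 between the derived lines, and of the member calls only that of *Hesx1* in PRAMEL7 ΔN over parental cells was lost (limma adjusted p = 0.0550, leaving 2 lower). Fits with a library left out rest on fewer samples. A filter of 10 CPM left *Hesx1*, *Pou3f1*, *Sall2* and *Sox3* untested. After *Fgf5*, depth limits *Hesx1* (14 to 68 reads a library) and *Sox3* (18 to 38 reads) most.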
